A study of Mus musculus with 6 samples.

Results

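The genes described here are the Wnt ligands, the proteins that secrete them, their receptors, antagonists and R-spondin partners, and the cytoplasmic and nuclear effectors of the pathway. They were picked by a rule on gene names that uses no measured value, although the rule was written with earlier results of these data known, and make up 67 of the 23235 entries of the RNA-seq table: 19 Wnt genes, 2 genes of ligand secretion, 12 receptors, 11 antagonists, 9 genes of the R-spondin branch, 10 cytoplasmic effectors and 4 Tcf/Lef factors. RNA was sequenced from the mouse embryonic stem cell (ESC) line E14Tg2a at passages 37 to 40. The ESC group had 3 samples grown with leukemia inhibitory factor (LIF), a cytokine that holds mouse ESCs in the pluripotent state. The NC group had 3 samples of monolayers of the same line from which LIF had been taken away and to which 1 μM retinoic acid (RA) had been given for 48 h, and which the study calls neuronal cells (NCs). Loss of LIF and gain of RA therefore cannot be told apart, and both groups come from a single line.

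Each gene has 1 FPKM value for ESCs and 1 for NCs, estimated by the authors over the 3 samples of a condition. FPKM is the number of sequenced fragments per kilobase of transcript, taken relative to all mapped fragments of the library, so levels of different genes can be compared per length. The table holds no value of a single sample. No SD or test over samples could therefore be computed for any value here, the columns of the authors' own comparison were not used, and the spread between samples behind each difference is not known here. A gene was called up-regulated or down-regulated in NCs when its FPKM differed at least 2-fold and reached 1 FPKM in the higher condition, which is a rule of size and not a test. Where a pair of values follows a gene, the ESC value comes first and the NC value second. In bulk RNA, fewer cells with a transcript and less of it per cell cannot be told apart.

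The pluripotency markers Pou5f1, Nanog and others were down-regulated in NCs in 9 of 9 cases, and their summed level was 2503 FPKM in ESCs against 107 FPKM in NCs. Of 10 neural genes, 4 were up-regulated, among them the progenitor factors Pax6 (3.64 FPKM in ESCs, 65.2 FPKM in NCs) and Sox1 (1.77 and 21.8 FPKM). The neuronal genes Tubb3 (33.4 and 7.54 FPKM) and Neurod1 (10.1 and 0.259 FPKM) were down-regulated, and Dcx and Neurog2 stayed under 1 FPKM in both, so the defining markers of neurons go against the name of the NCs. Of 9 endoderm markers 4 were up-regulated (summed level 175 FPKM in ESCs and 241 in NCs, with Afp and Ttr under 1 FPKM in both), and of 7 fibroblast markers 4 were up-regulated and 1 was down-regulated (19.8 and 44.1 FPKM). Of 6 trophoblast markers 2 were up-regulated and 2 were down-regulated (113 and 173 FPKM), and all 8 primitive streak and mesoderm markers lay under 1 FPKM in NCs (4.26 and 3.09 FPKM). Whether these other cell types had a part in the values below was not tested. Of all entries with at least 1 FPKM in the higher condition, 12.5% were up-regulated and 10.6% down-regulated, and the marker counts are read beside these shares. The FPKM values of the whole table sum to 770592 in ESCs and 628679 in NCs, a gap of 0.29 on the log2 scale. A rescaling to equal sums raises every log2 ratio of NC to ESC by that amount. It moves the median log2 ratio of entries with at least 1 FPKM in both conditions from -0.05 to 0.25, away from an even balance.

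Wnt proteins are lipid-modified secreted signals. Porcupine attaches the lipid, Wntless carries the ligand to the cell surface, and Frizzled receptors bind it together with Lrp5 or Lrp6. In the canonical branch, binding stops Axin, Apc and Gsk3b from marking β-catenin for destruction, and β-catenin then acts with Tcf/Lef factors on target genes. In mouse ESCs canonical signalling sustains self-renewal, and in the embryo Wnts pattern the neural tube and the body axis.

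Of the 67 genes, 50 reached 1 FPKM in at least 1 condition. Among these 50, 20 genes (40%) were up-regulated in NCs, against 12.5% of the 13293 entries of the table that passed the same filter, and 4 genes (8%) were down-regulated, against 10.6% of them. Genes that passed the filter through only 1 condition lean towards a call, and 8 of the 20 up-regulated and 2 of the 4 down-regulated genes were of this kind. Among the 38 genes with at least 1 FPKM in both conditions, 12 (31.6%) were up-regulated, against 7.45% of 11717 entries, and 2 (5.26%) were down-regulated, against 7.89%. The median log2 ratio of NC to ESC was 0.60 over the 50 genes and -0.03 over all passing entries above 0 in both conditions. After rescaling to equal sums, 24 of the genes passed the limit upwards and 2 downwards. The share of higher calls among all calls then moved from 83.3% to 92.3% for these genes and from 54.0% to 70.6% for the whole table. Dvl2, Apc, Fzd7, Lgr4, Lrp5, Sfrp2 and Wnt16 were slightly lower in NCs as deposited and slightly higher after rescaling.

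**Figure D1:**
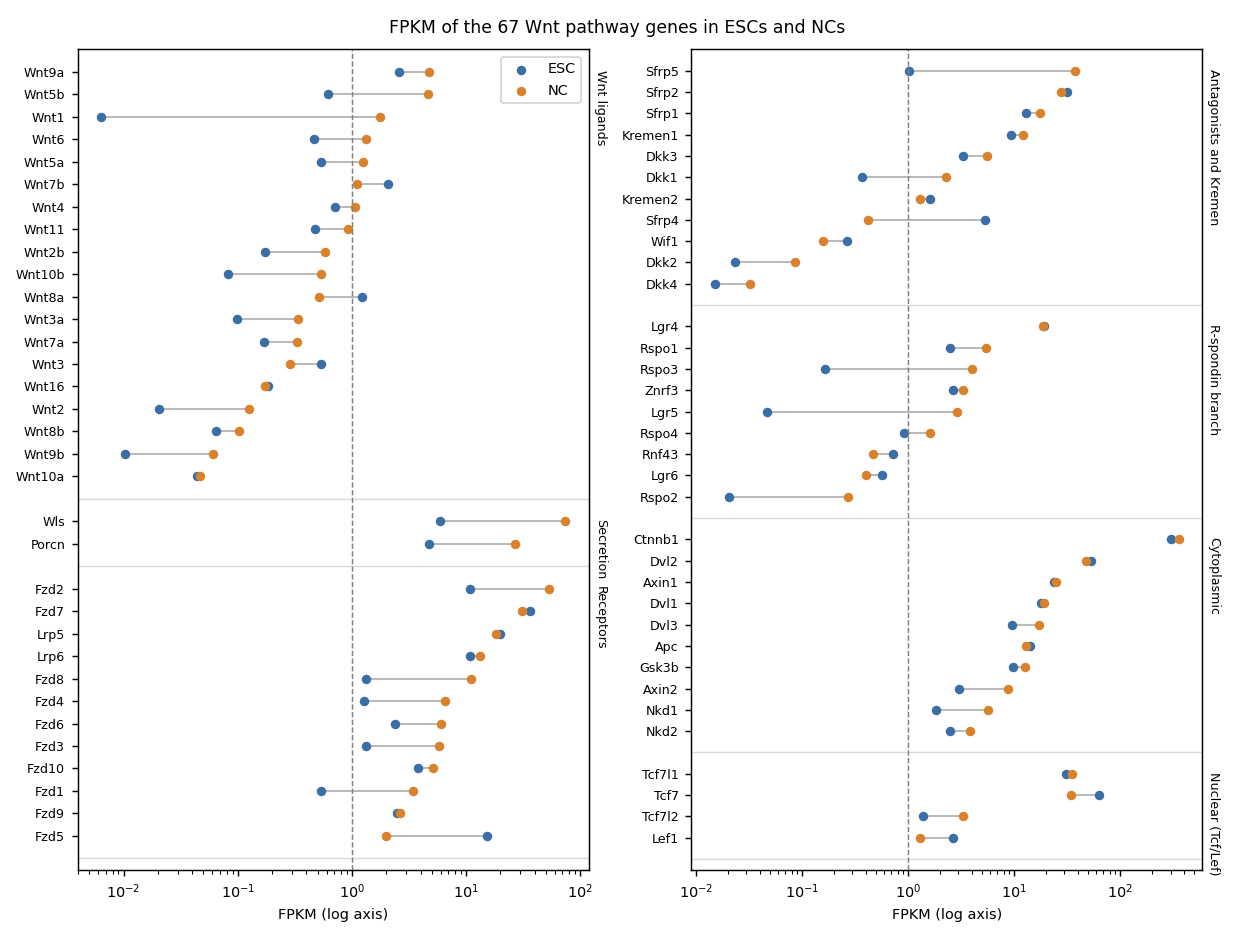
FPKM (log axis) of each of the 67 genes in ESCs (blue) and NCs (orange), 1 value per condition over 3 samples with no error available, grouped by role and ordered by the NC value. The dashed line marks 1 FPKM, and the longest lines among the well expressed genes belong to Wls, Porcn, Fzd5, Fzd8, Sfrp5 and Sfrp4.

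**Figure D2:**
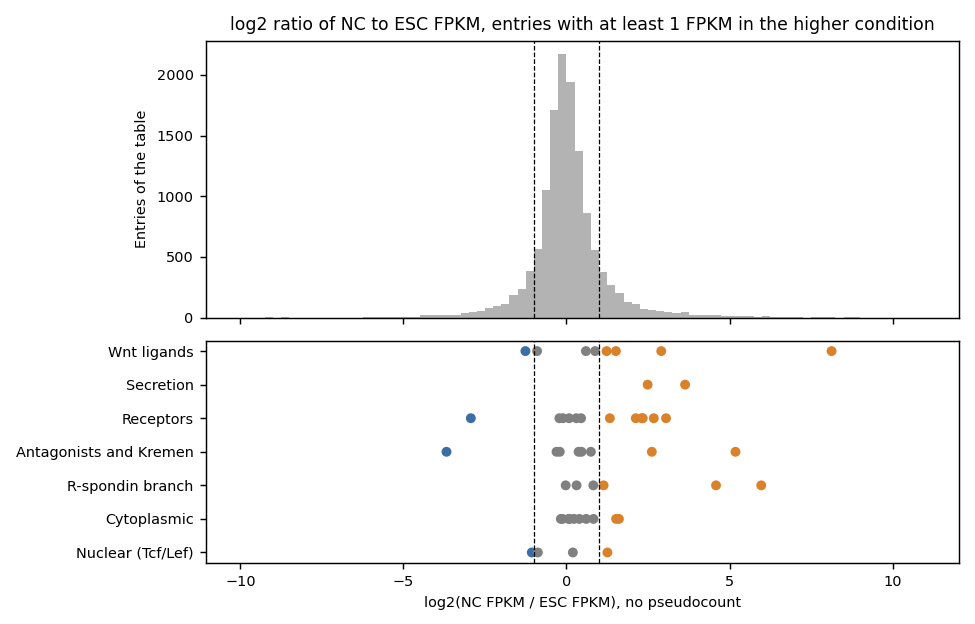
Upper panel: number of table entries by log2 ratio of NC to ESC FPKM, for entries with at least 1 FPKM in the higher condition (74 such entries listed at 0 in 1 condition are not drawn). Lower panel: the 50 genes that passed the filter, by role, with orange for at least 2-fold higher in NCs, blue for at least 2-fold lower, grey for the rest and dashed lines at 2-fold; the 20 orange points outnumber the 4 blue ones.

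The Wnt ligands were the lowest expressed group. The 19 ligand values summed to 10.1 FPKM in ESCs compared with 19.97 FPKM in NCs, and 11 of the 19 stayed under 1 FPKM in both conditions. Of the 8 that passed, 4 were up-regulated (50%, against 12.5% of all passing entries) and 1 was down-regulated (12.5%, against 10.6%). The other 3 were within the 2-fold limit, and each of the 5 calls rests on a value under 1 FPKM in the other condition. Wnt5b, a ligand known mostly for β-catenin-independent signalling, was measured at 0.621 FPKM in ESCs and 4.66 in NCs, a 7.499-fold difference. Its share of the summed ligand level was 6.17% in ESCs and 23.3% in NCs. Wnt5b spans chromosome 6, 119432531 to 119544347, on the minus strand (GRCm38).

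Wnt1, a ligand of the midbrain and dorsal neural tube, was measured at 0.00633 FPKM in ESCs against 1.77 FPKM in NCs. The ESC value is worth about 1 fragment and the NC value about 553, as read from the lowest values of the table. Taking these counts as given, the ratio of 280, the largest among the 67 genes, has a 95% counting interval of 51.7 to 11440. The interval rests on that reading and covers counting error only. The reading is weak for ESCs, where 53.2% of the low values lay near a step (30.0% if spread evenly). Wnt1 lies on chromosome 15, 98789857 to 98793837, and its neighbour Wnt10b, 11.7 kb away, read 0.0826 FPKM in ESCs and 0.539 in NCs, under the filter. Wnt6, which acts in epithelia and kidney development, was 2.86-fold higher in NCs (0.470 and 1.34 FPKM), whereas Wnt10a, 6.19 kb away, was near 0 in both (0.0444 and 0.0471 FPKM). Wnt5a, the best known ligand of the planar cell polarity branch, was 2.34-fold higher (0.537 and 1.26 FPKM).

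Wnt8a, a ligand of the early posterior embryo, was the only down-regulated ligand. Its values were 1.23 FPKM in ESCs compared with 0.512 FPKM in NCs, a 2.39-fold difference that shrank to 1.95-fold when the table was rescaled to equal sums. Wnt7b was 1.87-fold lower in NCs (2.07 and 1.11 FPKM), inside the limit. Wnt9a had the highest ligand level in both conditions, 2.58 FPKM in ESCs and 4.74 in NCs, a 1.84-fold difference that reached 2.25-fold after rescaling. Its neighbour Wnt3a, 16.2 kb away, read 0.0981 and 0.337 FPKM. Wnt4 was 1.51-fold higher in NCs (0.705 and 1.07 FPKM), and 3.85% of its 50-base words occur in another gene too, the largest share among the 67 genes.

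The remaining ligands stayed under 1 FPKM in both conditions. Wnt3, known for its role in gastrulation, read 0.541 FPKM in ESCs against 0.287 FPKM in NCs, and Wnt9b, 24.3 kb from it, read 0.0102 and 0.0605 FPKM. Wnt11 came closest to the limit, with 0.471 and 0.926 FPKM. Wnt2b (0.173 and 0.577 FPKM), Wnt2 (0.0206 and 0.124 FPKM) and Wnt7a (0.171 and 0.331 FPKM) had their higher value in NCs. Wnt8b (0.0648 and 0.102 FPKM) and Wnt16 (0.183 and 0.175 FPKM) complete the family.

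Both genes of ligand secretion were up-regulated in NCs. Wls, which encodes Wntless, was measured at 5.97 FPKM in ESCs and 74.3 in NCs, a 12.4-fold difference, and became the highest of the 67 genes after Ctnnb1. Porcn, which encodes porcupine, was measured at 4.75 and 26.7 FPKM, a 5.61-fold difference. Together they went from 10.7 to 101 FPKM, 9.42-fold, while the summed level of the ligands they serve differed 1.98-fold. Both genes exceeded 1 FPKM in ESCs and in NCs, so neither call comes from a value near 0. Porcn lies on chromosome X, 8193848 to 8206525, minus strand. Wls lies on chromosome 3, 159839672 to 159938664, plus strand. Promoter sequence is shown for Wls as one of the largest differences. The 250 bases before its RefSeq start, chr3:159839400-159839649 on the plus strand of GRCm38.p6, lie outside the transcript and read 5′ to 3′ as follows, with capitals for a retinoic acid receptor hexamer read on the opposite strand, 54 to 49 bases before the start.
Wls: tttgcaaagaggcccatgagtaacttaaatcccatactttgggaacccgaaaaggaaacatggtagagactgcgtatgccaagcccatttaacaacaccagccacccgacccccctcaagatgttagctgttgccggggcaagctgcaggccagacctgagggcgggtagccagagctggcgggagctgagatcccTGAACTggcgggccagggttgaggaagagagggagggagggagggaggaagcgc

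The hexamers searched, on both strands, were the classical word AGGTCA, its variant AGTTCA, and the related words GGGTCA as well as GGTTCA. They occurred in 38.6% of the 32851 promoter windows of 27025 mouse genes and in 23 of the 55 windows (41.8%) of the 45 Wnt pathway genes that matched an entry. A match is a description of the letters and not a binding site. No window of these genes held a direct repeat of such hexamers with a spacer of 1, 2 or 5 bases, which 0.426% of all windows did.

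Of the 12 receptors, all of which passed the filter, 6 were up-regulated (50%, against 12.5% of all passing entries). Of the rest, 1 was down-regulated (8.33%, against 10.6%) and 5 were within the limit. The 10 Frizzled genes summed to 75.5 FPKM in ESCs compared with 127 FPKM in NCs, and the leading receptor differed between the conditions. Fzd7, a receptor known for its part in ESC self-renewal, supplied 48.1% of the Frizzled level in ESCs (36.3 FPKM) and 24.5% in NCs (31.2 FPKM), with its own level well inside the limit. Fzd2, which also transmits Wnt5a signals, was measured at 10.8 FPKM in ESCs and 53.6 in NCs, 4.96-fold higher, and supplied 14.3% and 42.1%. Fzd2 is a gene of a single exon on chromosome 11, 102604396 to 102608058.

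Fzd5 was the only receptor that was lower in NCs beyond the limit. It was measured at 15.2 FPKM in ESCs against 1.99 FPKM in NCs, a 7.64-fold difference, and its share of the Frizzled level was 20.1% in ESCs and 1.56% in NCs. Fzd5 is a receptor known from eye and gut development, on chromosome 1, 64730558 to 64737751, minus strand. It shares 1233 exonic bases with Gm38058 on the other strand. The strand setting of the libraries is not given in the sources used here, so reads of both genes could not be separated. The 250 bases before the RefSeq start of Fzd5, chr1:64737751-64738000 on the minus strand, are shown because it fell most among the receptors. Capitals mark such hexamers read on the opposite strand, 235 to 230 and 16 to 11 bases before the start.
Fzd5: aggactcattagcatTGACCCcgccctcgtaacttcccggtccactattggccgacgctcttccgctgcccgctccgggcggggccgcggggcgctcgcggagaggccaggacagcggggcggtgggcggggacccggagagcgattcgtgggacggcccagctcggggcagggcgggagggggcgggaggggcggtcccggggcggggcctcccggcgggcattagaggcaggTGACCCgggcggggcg

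Fzd8, a receptor of the anterior embryo, was measured at 1.32 FPKM in ESCs and 10.996 in NCs and had the largest receptor ratio, 8.30-fold. Fzd4, the receptor of the retinal vessel factor norrin, was 5.06-fold higher in NCs (1.28 and 6.49 FPKM). Fzd3, which guides axon tracts, was 4.36-fold higher (1.32 and 5.75 FPKM). Fzd6, its partner in planar cell polarity, was 2.51-fold higher (2.39 and 6.02 FPKM). These 4 receptors were above 1 FPKM in both conditions, whereas Fzd1 was 6.40-fold higher from an ESC value under 1 FPKM (0.541 and 3.46 FPKM). Fzd9 (2.50 and 2.65 FPKM) and Fzd10 (3.77 and 5.14 FPKM) lay inside the limit. The co-receptors Lrp5 (19.8 and 18.4 FPKM) and Lrp6 (10.8 and 13.4 FPKM) also lay inside it, and their sum was 30.7 FPKM in ESCs compared with 31.8 FPKM in NCs.

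**Figure D3:**
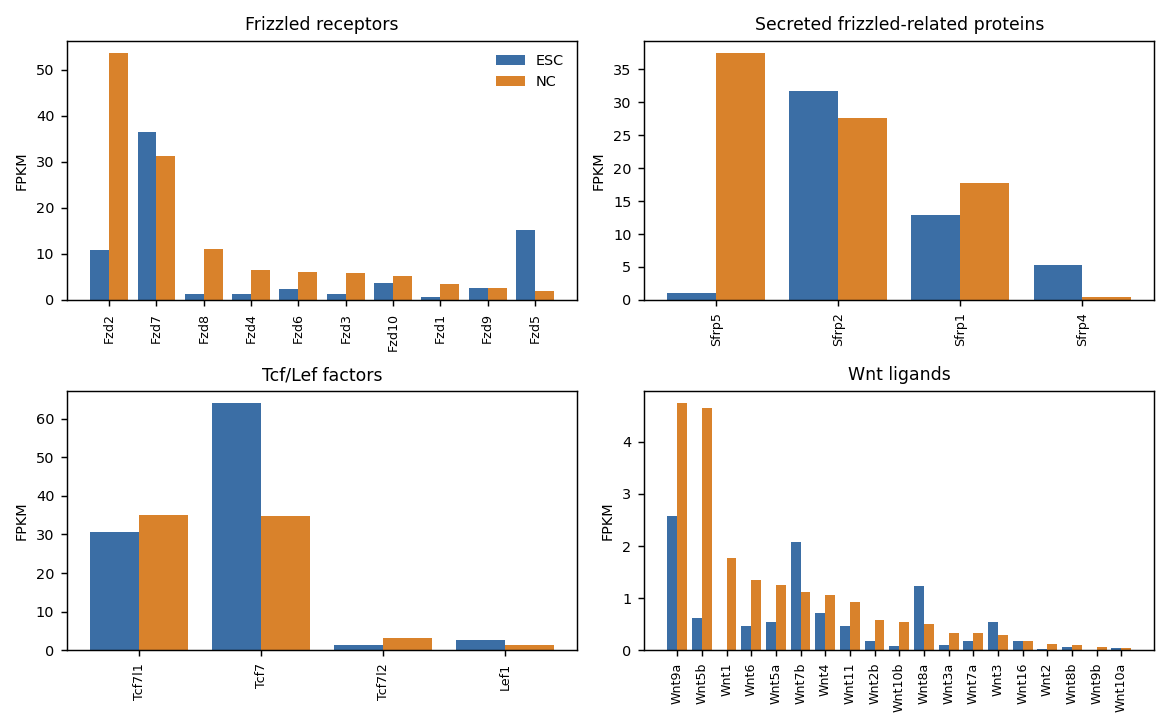
FPKM of each member of 4 gene families in ESCs (blue bars) and NCs (orange bars), 1 value per condition with no error available and axes that start at 0. Fzd2 stands above Fzd7 in NCs only, Sfrp5 leads its family in NCs only, and Tcf7l1 and Tcf7 are at 35.1 and 34.8 FPKM in NCs.

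The antagonists bind Wnt ligands (the Sfrp proteins and Wif1) or take Lrp5 and Lrp6 away from the surface (Dkk1 and related Dkk proteins with Kremen). This action is not assumed here for Dkk3. Of the 11 genes 8 passed the filter. Of these 8, 2 were up-regulated (25%, against 12.5% of all passing entries), 1 was down-regulated (12.5%, against 10.6%) and 5 were within the limit. The 4 Sfrp genes summed to 51.0 FPKM in ESCs and 83.2 in NCs and contained the largest change in each direction among the well expressed genes. Sfrp5 was measured at 1.03 FPKM in ESCs against 37.5 FPKM in NCs, a 36.3-fold difference, and supplied 2.02% and 45.0% of the family's level. Sfrp4 was measured at 5.34 FPKM in ESCs and 0.417 in NCs, 12.8-fold lower, on chromosome 13, 19623104 to 19632994. Sfrp2, the leading Sfrp of ESCs, was at 31.8 and 27.5 FPKM and Sfrp1 at 12.9 and 17.7 FPKM, both inside the limit. Sfrp5 lies on chromosome 19, 42197971 to 42202252, minus strand, and the 250 bases before its start, chr19:42202253-42202502, are shown because its ratio was the largest at this level. Capitals mark such a hexamer on the strand of the gene, 87 to 82 bases before the start.
Sfrp5: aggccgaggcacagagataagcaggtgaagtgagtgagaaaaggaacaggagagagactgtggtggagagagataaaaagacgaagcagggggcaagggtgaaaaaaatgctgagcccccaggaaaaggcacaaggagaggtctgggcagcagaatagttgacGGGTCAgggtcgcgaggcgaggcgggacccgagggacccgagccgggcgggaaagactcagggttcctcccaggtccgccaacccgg

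Dkk1, an antagonist needed for head formation, was 6.14-fold higher in NCs, from 0.372 to 2.28 FPKM. Dkk3, a divergent member of the family, had the highest Dkk level in both conditions (3.31 and 5.57 FPKM, 1.68-fold), and reached 2.06-fold after rescaling to equal sums. Kremen1 (9.35 and 12.1 FPKM) and Kremen2 (1.62 and 1.31 FPKM) lay inside the limit. Kremen2 shares 200 exonic bases with the antisense gene 9530082P21Rik, which was listed at 5.38 FPKM in ESCs compared with 9.88 FPKM in NCs, above Kremen2 itself. Dkk2 (0.0234 and 0.0858 FPKM), Dkk4 (0.0150 and 0.0327 FPKM) and Wif1 (0.269 and 0.158 FPKM) stayed under the filter, and the ESC value of Dkk4 was at or below 3 fragments.

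R-spondins are secreted proteins that bind Lgr4, Lgr5 or Lgr6 and remove the ubiquitin ligases Znrf3 and Rnf43, which otherwise clear Frizzled receptors. Of these 9 genes 6 passed the filter, 3 were up-regulated (50%, against 12.5% of all passing entries) and none was down-regulated (against 10.6%). Lgr5, a stem cell marker of several adult epithelia, was measured at 0.0465 FPKM in ESCs and 2.92 in NCs, a 62.8-fold difference. Rspo3 was measured at 0.167 and 4.01 FPKM, 24.0-fold higher, and supplied 4.66% of the summed R-spondin level in ESCs and 35.3% in NCs. Both passed the filter only through NCs. Lgr5 lies on chromosome 10, 115450311 to 115587780, and Rspo3 on the same chromosome, 29452416 to 29535867, both on the minus strand.

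Rspo1 was 2.20-fold higher in NCs (2.48 and 5.45 FPKM), the only call of this branch with both values above 1 FPKM. The R-spondin genes together summed to 3.59 FPKM in ESCs against 11.4 FPKM in NCs. Rspo4 was 1.77-fold higher (0.923 and 1.63 FPKM), inside the limit, and 2.17-fold higher after rescaling, and Rspo2 stayed low (0.0207 and 0.271 FPKM). Lgr4 supplied most of the Lgr level in both conditions, 96.9% in ESCs and 85.1% in NCs, at 19.3 and 18.9 FPKM. The ligase Znrf3 read 2.68 FPKM in ESCs and 3.32 in NCs. Rnf43 (0.726 and 0.468 FPKM) and Lgr6 (0.575 and 0.399 FPKM) stayed under the filter.

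Among the 10 cytoplasmic effectors, 8 were within the limit and 2 were up-regulated (20%, against 12.5% of all passing entries). The up-regulated genes both encode negative regulators of the pathway, but whether the pathway was more or less active in NCs was not tested. Axin2, a scaffold of the destruction complex, was measured at 3.07 FPKM in ESCs compared with 8.81 FPKM in NCs, a 2.87-fold difference, and Nkd1, an inhibitor that binds Dishevelled, at 1.86 and 5.66 FPKM, a 3.05-fold difference. Axin2 lies on chromosome 11, 108920349 to 108950783, and Nkd1 on chromosome 8, 88521354 to 88594884. The related Axin1 read 23.7 and 24.8 FPKM. Nkd2 was 1.52-fold higher in NCs (2.52 and 3.82 FPKM).

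Ctnnb1, which encodes β-catenin, had the highest level of the 67 genes in both conditions, 306 FPKM in ESCs and 359 in NCs, a 1.17-fold difference. It shares 759 exonic bases with Ulk4 on the other strand, whose own level was 0.810 and 1.06 FPKM. Apc (14.0 and 12.9 FPKM) and the kinase Gsk3b (9.74 and 12.8 FPKM) lay well inside the limit. The Dishevelled genes, which relay the signal from Frizzled, summed to 81.2 FPKM in ESCs against 83.9 FPKM in NCs. Dvl2 led them (53.7 and 47.6 FPKM) and shares 1151 exonic bases with Acadvl on the other strand (20.1 and 25.9 FPKM). Dvl1 read 17.9 and 19.1 FPKM. Dvl3 differed most, 1.78-fold (9.67 and 17.2 FPKM), and reached 2.18-fold after rescaling.

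The 4 Tcf/Lef factors summed to 98.8 FPKM in ESCs and 74.5 in NCs, and theirs was the only role whose summed level was lower in NCs. Tcf7 and Tcf7l1 supplied most of it in both conditions. Tcf7, which mostly activates targets with β-catenin, was measured at 64.0 FPKM in ESCs compared with 34.8 FPKM in NCs, 1.84-fold lower and inside the limit. Tcf7l1, the main repressor among these factors in mouse ESCs, was at 30.7 and 35.1 FPKM. Its share of the family's level was 31.1% in ESCs and 47.2% in NCs, while that of Tcf7 was 64.8% and 46.7%.

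Tcf7l2 was 2.39-fold higher in NCs (1.38 and 3.28 FPKM), and Lef1, an activator, was 2.09-fold lower (2.69 and 1.29 FPKM). The Lef1 call was the closest to the limit of all down-regulated genes and was 1.70-fold after rescaling to equal sums. Lef1 shares 1208 exonic bases with the antisense gene Gm43352. Of the up-regulated genes, Rspo3 (404 bases), Wnt5a (358), Axin2 (209) and Fzd6 (152) also share exonic bases with a gene on the other strand. Reads of these pairs could not be separated either. Tcf7 lies on chromosome 11, 52252371 to 52283014, Tcf7l1 on chromosome 6, 72626378 to 72789254, Tcf7l2 on chromosome 19, 55741820 to 55933654, and Lef1 on chromosome 3, 131110471 to 131224356.

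Letters that Tcf/Lef factors are known to bind (the word CTTTGAA, the word CTTTGAT, the word CTTTGTA or the word CTTTGTT, on both strands) were looked for in the 250 bases before each RefSeq start. They occurred in 14.8% of all windows and in 6 of the 55 windows of the Wnt pathway genes (10.9%). The genes were Dkk1, Wnt5b and Tcf7l2, which were up-regulated, Lef1, which was down-regulated, Fzd7, which was inside the limit, and Wnt11, which stayed under the filter. Dkk1 alone held a pair of them, 117 to 111 and 98 to 92 bases before the start. Both lie inside the GENCODE span of Dkk1, chromosome 19, 30545863 to 30549665, minus strand. For Wnt5b, Tcf7l2 and Lef1 the match precedes a start inside the GENCODE span of the gene. The other windows of Wnt5b, Tcf7l2 and Lef1 held no match. Each match is shown in capitals with up to 10 bases on either side, 5′ to 3′ on the strand of the gene.
Dkk1, chr19:30549597-30549623, minus strand: cctcccaaagCTTTGAAatcccatccc
Dkk1, chr19:30549578-30549604, minus strand: cccatcccggCTTTGTTgtcttccctg
Wnt5b, chr6:119449441-119449467, minus strand: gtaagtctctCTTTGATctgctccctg
Tcf7l2, chr19:55895297-55895320, plus strand: aaatatcaggCTTTGTTcttttga
Lef1, chr3:131156137-131156163, plus strand: aacctcagaaTACAAAGtaggattgca
Fzd7, chr1:59482007-59482033, plus strand: ccacagagaaAACAAAGcgcgctattg
Wnt11, chr7:98835051-98835077, plus strand: acgtgggcggATCAAAGcgacggtccg

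Genes that work with the 67 were compared in 6 further lists of 100 distinct genes in all, of which 99 were in the table and 86 passed the filter. Apcdd1, Notum and Tbx3 each stand in more than 1 list. Of these 86, 19 (22.1%) were up-regulated, against 12.5% of all passing entries, and 9 (10.5%) were down-regulated, close to the 10.6% of all passing entries. The counts of each list that follow are set against the same shares of the table. Among 20 other receptors and planar cell polarity genes, all of which passed, 4 were up-regulated. They were the Wnt5a receptors Ror2 (4.07 and 10.8 FPKM) and Ror1 (0.465 and 1.53 FPKM), the formin Daam2 (0.192 and 2.00 FPKM) and Prickle2 (0.757 and 2.59 FPKM). Celsr3, a cadherin of axon guidance, was down-regulated (1.90 and 0.564 FPKM). Ptk7 had the highest level of this list in both conditions, 53.3 and 48.3 FPKM, and the median log2 ratio was 0.56.

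Of the 16 other secreted or membrane modulators 11 passed, 5 were up-regulated and none was down-regulated. Gpc3, a glypican that binds Wnts at the surface, was measured at 52.6 FPKM in ESCs and 245 in NCs, 4.65-fold higher, and Igfbp4, a secreted inhibitor of the receptors, at 15.1 and 55.4 FPKM, 3.67-fold higher. The others were Trabd2b, a protease that cleaves Wnts (0.0945 and 2.07 FPKM), Shisa3, of a family that holds back Frizzled receptors (0.344 and 3.41 FPKM), and Draxin, an axon guidance protein (0.369 and 1.67 FPKM).

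The partners of the destruction complex differed little. Of 21 genes 20 passed and only Frat1, a Gsk3 inhibitor, was up-regulated (1.22 and 3.08 FPKM), with a median log2 ratio of 0.01. Csnk1a1 led the list in ESCs (190 FPKM, and 134 FPKM in NCs) and Ppp2ca in NCs (197 FPKM, and 177 FPKM in ESCs). Of the 19 transcription partners and corepressors, all of which passed, 4 were up-regulated and 3 were down-regulated. The kinase Hipk2 (3.45 and 10.4 FPKM), the cofactor Pygo1 (1.32 and 4.22 FPKM), Sox17, also an endoderm marker (0.861 and 3.996 FPKM), and the corepressor Tle2 (0.670 and 1.35 FPKM) were higher. The corepressors Ctbp2 (96.3 and 30.8 FPKM) and Aes (92.8 and 44.7 FPKM) were among the lower ones. The corepressor that led this list was Ctbp2 in ESCs and Ctbp1 in NCs (42.5 and 78.2 FPKM).

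Of 20 known canonical targets outside the 67 genes 13 passed, 5 were up-regulated and none was down-regulated. The differentiation inhibitor Id2 was 14.4-fold higher in NCs (11.5 and 167 FPKM), the axial patterning factor Cdx1 5.99-fold (0.598 and 3.58 FPKM), Sp5 2.85-fold (0.566 and 1.61 FPKM), Jun 2.84-fold (7.90 and 22.4 FPKM) and Myc 2.18-fold (4.76 and 10.3 FPKM). Several of these genes also answer to other signals. Of the 8 inside the limit, Apcdd1 and Bmp4 were higher in NCs. Ccnd1 (15.2 and 12.1 FPKM), Dll1, Fgf8, Notum, Ppard and Tbx3 were lower. Among those under 1 FPKM in both conditions, Cd44 and Cdx2 were higher. Cdx4 (0.635 and 0.0730 FPKM), Mesp1, Msgn1, Tbx6 and T, the streak factor brachyury (0.628 and 0.299 FPKM), were lower.

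The 6 genes that Tcf7l1 is known to repress in ESCs had a median log2 ratio of -3.88, and 5 of them were down-regulated in NCs. Nanog fell 16.2-fold (225 and 13.9 FPKM), Esrrb 43.7-fold (128 and 2.94 FPKM), Nr0b1 41.6-fold (26.9 and 0.646 FPKM), Tfcp2l1 13.4-fold (32.6 and 2.44 FPKM) and Klf2 6.89-fold (97.9 and 14.2 FPKM). These are genes of the pluripotent state, and 2 of the 6 are also among the pluripotency markers above. Tbx3 lay inside the limit, at 7.37 FPKM in ESCs against 4.81 FPKM in NCs. Tcf7l1 itself was 1.14-fold higher in NCs.

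**Figure D4:**
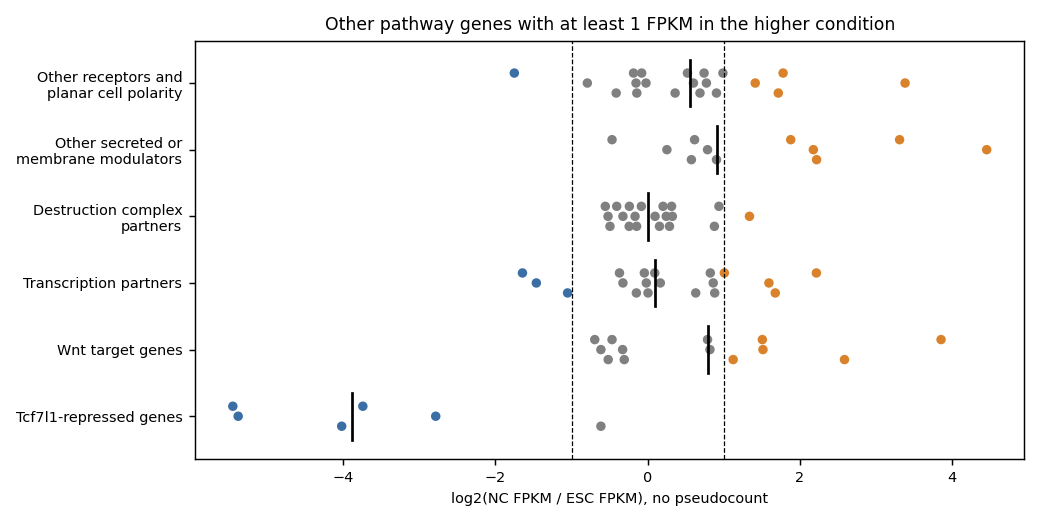
log2 ratio of NC to ESC FPKM for the 86 genes of the 6 further lists that passed the filter, with 1 point per gene in each list that holds it. Apcdd1, Notum and Tbx3 stand in more than 1 list. Points are orange for at least 2-fold higher in NCs, blue for at least 2-fold lower and grey for the rest. Dashed lines lie at 2-fold, and a black bar marks the median of each list. The destruction complex partners lie around a median of 0.01, and 5 of the 6 Tcf7l1-repressed genes lie far to the left.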

How the data were processed

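Total RNA of 3 ESC and 3 NC samples was made into libraries with the Tru-Seq RNA kit, each from a pair of culture plates. According to the submitters' notes and the study's methods, the authors used Bowtie2 2.1.0 within TopHat2 2.0.8 to align reads to mm10, assembled transcripts with Cufflinks 2.0.2 and Cuffmerge, and compared conditions with Cuffdiff (version not given in the sources used here). The authors deposited 1 FPKM value per gene and condition, pooled over replicates. The NC heading reads FPK and was taken as FPKM. The columns of the authors' comparison (status, log2 fold change, test statistic, p-value, q-value and significance) were not used.

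Ratios were computed without a pseudocount. Genes needed 1 FPKM in the higher condition and a 2-fold difference to be called. Every one of the 67 genes is reported. From the further lists, the genes past these limits and the highest gene were named, except for 1 gene that is not reported here, and Prickle4 was not in the table. Other genes of those lists were named after their values were seen. Promoters were shown for genes with the largest ratios among those with at least 5 FPKM. The genes and lists were chosen with earlier results of these data known.

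The depth per sample is unknown. Low values lay on steps of 0.0134 FPKM in ESCs and 0.00699 FPKM in NCs per fragment in 1 kb of transcript, for 53.2% of 554 and 70.6% of 646 values within 0.15 of a step (30.0% if spread evenly), with a fragment length of 200 bases. Gene positions came from GENCODE M21 (GRCm38, the sequence of mm10) and promoters from RefSeq on GRCm38.p6. Protein sequences were not used here. Alternatives were pseudocounts of 0.1 and 1, no filter, 1 FPKM in both conditions, centring, fold limits of 1.5 and 4, entries summed by name and, chosen after seeing the data, rescaling to equal sums. Only the calling of genes was tested on simulated data, with planted 4-fold differences that a 2-fold limit was bound to find. All steps were run with Python 3.11.15, numpy 2.4.6, pandas 2.3.3, scipy 1.17.1 and matplotlib 3.10.9.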

Additional observations from a re-analysis of the deposited data

How the results depend on the processing

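No paired analysis was possible because the table pools the replicates of each condition, and leaving out each replicate could not be done for the same reason. None of the 24 called genes changed sign under the 9 alternatives tried, but this was fixed in advance and is no sign of stability. Each call is at least 2-fold, and the largest shift common to all genes, by rescaling to equal sums, was 0.29 on the log2 scale. A pseudocount shrinks a ratio but cannot turn its sign, and single ratios moved much further under it. With a pseudocount of 1, the log2 ratio of Wnt1 went from 8.130 to 1.463 and that of Lgr5 from 5.973 to 1.905. Of the 67 genes, 7 changed sign after rescaling to equal sums and 1, Lgr4, after centring, all of them within the 2-fold limit or under the filter. The balance of all entries turned from 1658 higher and 1412 lower to 873 higher and 924 lower with 1 FPKM in both conditions. The 20 up-regulated Wnt pathway genes became 12 with at least 1 FPKM in both conditions and 13 with a 4-fold limit, and the 4 down-regulated ones became 2 with a pseudocount of 1, with 1 FPKM in both, with a 4-fold limit and after rescaling to equal sums. Of the 24 called genes, 18 were kept with a pseudocount of 1 (Lef1, Rspo1, Tcf7l2, Wnt5a, Wnt6 and Wnt8a were lost), 14 with 1 FPKM in both conditions, 15 with a 4-fold limit and 22 after rescaling. The 5 called ligands became 2 with a pseudocount of 1, 10 with no filter, 0 with 1 FPKM in both, 8 with a 1.5-fold limit and 2 with a 4-fold limit. The 3 called antagonists became 5 with no filter and 1 with 1 FPKM in both, and the 3 called genes of the R-spondin branch became 1 with 1 FPKM in both. The 2 called cytoplasmic genes became 4 with a 1.5-fold and 0 with a 4-fold limit, and the 2 called Tcf/Lef genes became 0 with a pseudocount of 1 or a 4-fold limit and 1 after rescaling. The median log2 ratio of 0.60 became 0.44 with a pseudocount of 1, 0.75 with no filter, 0.38 with 1 FPKM in both and 0.89 after rescaling. Over all entries, the 1658 higher became 1074 with a pseudocount of 1, 2947 with no filter, 2741 with a 1.5-fold and 679 with a 4-fold limit. The 1412 lower became 2403 with no filter, 2573 with a 1.5-fold and 488 with a 4-fold limit. After rescaling to equal sums, 2350 entries were higher and 980 lower. The 19 higher genes of the further lists became 9 with 1 FPKM in both, 35 with a 1.5-fold limit, 8 with a 4-fold limit and 31 after rescaling, and the 9 lower ones became 5 with a 4-fold limit. Stricter limits count fewer genes by construction. Which scaling is the right one was not tested. Depth could be read only from the lowest values, and values at or below 3 fragments were found for Wnt1 and Dkk4 in ESCs alone.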
